A study of Mus musculus with 9 samples.

Results

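Splenic Tregs with or without gp96 were compared here for 10 cytokine receptor chains, taken by gene symbol from the 25500 entries of the deposited expression table. They were the receptor chains for IL-7 (*Il7r*), IL-4 (*Il4ra*), IL-21 (*Il21r*), IL-15 (*Il15ra*), IL-9 (*Il9r*), IL-6 (*Il6ra* and *Il6st*), IL-27 (*Il27ra*) and IL-12 (*Il12rb1* and *Il12rb2*), and each had 1 row in the table. KO mice were *Foxp3* eGFP-Cre-ERT2 *Hsp90b1* fl/fl, whereas WT controls had the identical Cre allele and *Hsp90b1* WT/WT. *Hsp90b1* encodes gp96, an HSP90 chaperone of the endoplasmic reticulum that folds integrins, Toll-like receptors and other surface proteins. The Cre recombinase was expressed together with eGFP from the *Foxp3* gene and was active only in the presence of tamoxifen, so that deletion was directed to Foxp3+ cells while all other cells of the mouse kept gp96. Adult C57BL/6 mice of both genotypes received tamoxifen at 75 mg/kg for 10 days, and 1000000 GFP+ Tregs were then sorted from the spleen for each sample. RNA-Seq gave 4 libraries of WT Tregs, numbered WT 1 to WT 4, and 5 of KO Tregs, numbered KO 1 to KO 5. The sex of each mouse was not stated, and the labels number the libraries but do not tie them to mice, so p-values measure only the spread between these libraries.

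These receptors belong to the type I cytokine receptor family. They have no kinase of their own and signal through Janus kinases (JAKs) bound to their cytoplasmic tails, which phosphorylate STAT transcription factors. Most work as pairs of a private chain, which recognizes the cytokine, and a shared chain. The common γ chain (*Il2rg*) serves IL-2, IL-4, IL-7, IL-9, IL-15 and IL-21, gp130 (*Il6st*) serves IL-6 and IL-27, and IL-12Rβ1 (*Il12rb1*) serves IL-12 and IL-23. Tregs are known for high IL-2 receptor α chain and low IL-7 receptor α chain, and IL-6, IL-21 and IL-27 are known to act on the balance between Tregs and helper T cells.

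Levels are in FPKM (fragments per kilobase of gene, scaled by 1 constant per library), so that levels of different genes can be set side by side. *Hsp90b1* measured 44.4 to 62.9 FPKM in the WT libraries and 1.77 to 3.11 FPKM in the 5 KO libraries, in keeping with the labels. Recovered reads per library numbered 12059966 to 16664446 in 8 libraries and 24518439 in KO 1. The scale of the deposited FPKM did not follow these reads. A read on a 1-kb gene was 0.0692 FPKM in WT 1 (16664446 reads) but 0.0610 FPKM in WT 2 (14368139 reads). The place of WT 1 and KO 1 among the other libraries therefore depends on the scale, and levels are given on the deposited one. In a principal component analysis, WT 1 and KO 1 lay far from the rest on the first principal component (58.6% of the variance) and had fewer detected genes (18079 and 19010) than the other 7 libraries (20420 to 21292). The main comparison was WT 1 to WT 4 against KO 2 to KO 5, because the study describes 4 mice per genotype and lists normalized values for these libraries. No reason for leaving out KO 1 was stated, so that this choice is an assumption, and it keeps WT 1, which lay apart together with KO 1. KO 1 is therefore shown beside each chain, and the chains are also given without WT 1. In bulk RNA, fewer cells that express a gene and less RNA per cell cannot be told apart.

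In KO Tregs *Il9r* and *Il7r* were higher and *Il21r* and *Il6st* were lower. *Il9r* was 3.75 times and *Il7r* 2.48 times its WT mean, and *Il21r* and *Il6st* were 0.649 and 0.657 times theirs. Of the 10 chains, 9 exceeded 1 FPKM in every library and were tested, and *Il12rb2* did not reach the filter. At a Benjamini-Hochberg adjusted p under 0.05 (limma on log2(FPKM + 1), adjusted over 12237 genes), 2 of the 9 rose and 2 fell. Over all genes tested, 13.3% were called, 6.58% higher and 6.68% lower. *Il4ra*, *Il6ra*, *Il12rb1*, *Il15ra* and *Il27ra* did not pass. Without WT 1, 2 rose and 4 fell against a background of 36.6% called (19.5% higher and 17.1% lower), and *Il4ra* and *Il6ra* were the chains added. With all 9 libraries, 2 rose and 2 fell against 6.76% of genes (3.21% higher and 3.55% lower). With a term in that fit for WT 1 and KO 1, 3 rose and 4 fell against 36.3% of genes (19.3% higher and 17% lower), *Il12rb1* being the chain added to those that rose.

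**Figure D1:**
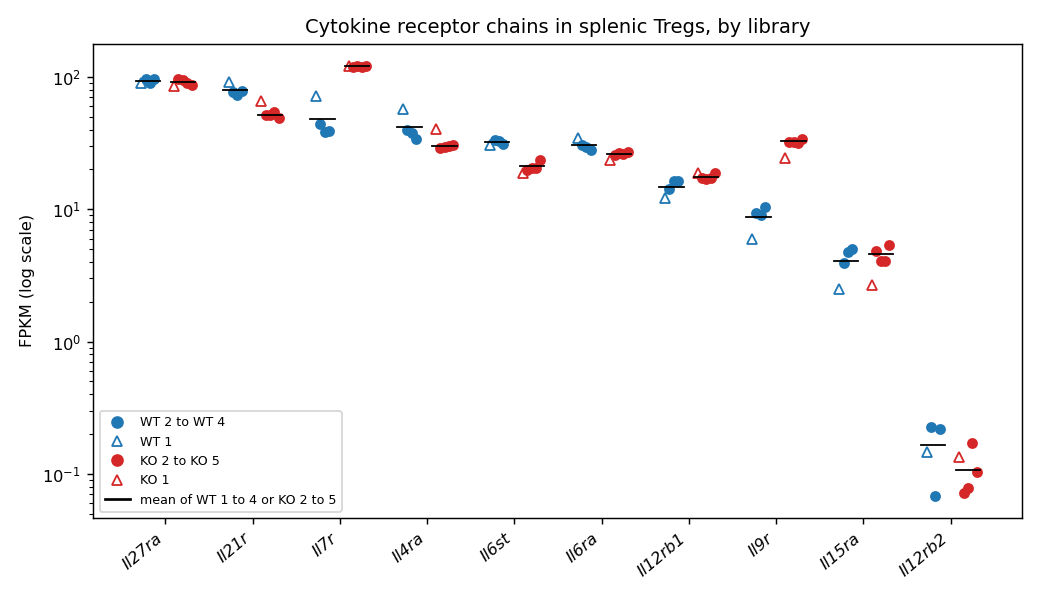
FPKM of the 10 receptor chains in each library on a log axis, ordered by WT mean, with WT in blue and KO in red. Open triangles are WT 1 and KO 1, and black lines are means (WT 1 to WT 4, or KO 2 to KO 5). *Il7r* and *Il9r* lay higher in all KO libraries, *Il21r* and *Il6st* lay lower in all of them, and the *Il27ra* and *Il15ra* ranges overlapped.

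Among the chains that pair with the common γ chain, the receptor for IL-9, a cytokine known for its action on mast cells and on T cells, had the largest change. *Il9r* (chromosome 11, 32187541 to 32200279, minus strand, GRCm38) measured 5.95, 9.28, 9.10 and 10.4 FPKM in WT 1 to WT 4. In the KO libraries it measured 24.3 FPKM in KO 1 and 32.4, 32.3, 31.9 and 33.8 FPKM in KO 2 to KO 5. Every KO library was above every WT library, WT 1 was the lowest WT library and KO 1 the lowest KO library. The mean rose from 8.69 ± 1.92 FPKM (SD, n = 4) to 32.6 ± 0.846 FPKM (SD, n = 4), a log2 change of 1.82 (SE 0.15, limma adjusted p = 2.67e-04). The change between WT 1 and KO 1 alone was 1.87 on the same scale, and that of KO 2 to KO 5 over WT 2 to WT 4 was 1.67.

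The 250 bases before the RefSeq start of each gene (GRCm38.p6) were searched on both strands for 3 motifs linked to this receptor family: the STAT motif TTCNNNGAA, the FOXO motif GTAAACA and the ETS motif CCGGAAG. Over 32851 RefSeq promoters, windows of this length held them in 7.02%, 3.17% and 6.91% of cases. No window of the chains held more than 1 match, so that matches to different motifs did not overlap. RefSeq promoters were found for 8 of the 10 chains, and *Il27ra* and *Il12rb1* had no entry in the table used. The *Il9r* window, printed because *Il9r* changed most, held none of the 3. It lies at chr11:32200280-32200529 on the minus strand, upstream of the annotated gene, and is 52.8% G + C.
Il9r promoter: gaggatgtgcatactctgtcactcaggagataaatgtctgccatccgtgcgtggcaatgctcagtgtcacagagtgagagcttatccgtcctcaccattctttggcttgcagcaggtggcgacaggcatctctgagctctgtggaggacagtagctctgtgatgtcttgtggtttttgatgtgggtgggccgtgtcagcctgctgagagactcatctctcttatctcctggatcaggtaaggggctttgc

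IL-7 receptor α (*Il7r*, chromosome 15, 9505788 to 9530176, minus strand), which carries survival signals to naive and memory T cells, was the most abundant of the 10 chains in KO Tregs. It measured 71.9, 44.4, 38.6 and 38.8 FPKM in WT 1 to WT 4. In KO 1 to KO 5 it measured 121, 118, 122, 119 and 121 FPKM. The KO values lay close together and above all WT values, and WT 1 was higher than the other 3 WT libraries. The mean rose from 48.4 ± 15.9 FPKM (SD, n = 4) to 120 ± 1.78 FPKM (SD, n = 4), a log2 change of 1.34 (SE 0.19, limma adjusted p = 0.00356). Without WT 1 the WT mean was 40.6 ± 3.27 FPKM and the change was 1.54 (limma adjusted p = 3.82e-06). The change between WT 1 and KO 1 was 0.74. The 250 bases before the RefSeq start held 1 STAT motif, TTCAGGGAA, at 142 bases before the start, and were 44.0% G + C. Of these bases, 86 lie in an exon of the GENCODE M21 gene model, so the window is not printed. *Foxp3* itself measured 83.0, 102, 106 and 102 FPKM in WT 1 to WT 4 and 55.0, 106, 108, 109 and 110 FPKM in KO 1 to KO 5. KO 1 lay below all WT libraries. KO 2 to KO 5 lay above all of them, KO 2 (105.9 FPKM) only just above WT 3 (105.8 FPKM). In the main comparison the log2 difference of 0.14 did not pass (limma adjusted p = 0.344).

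The IL-4 and IL-21 receptor chains lie next to each other on chromosome 7, with 23954 bases and no annotated gene between them, and in KO 2 to KO 5 both lay below all WT libraries. IL-21 receptor (*Il21r*, 125603429 to 125633570, plus strand) responds to the cytokine of follicular helper T cells. It measured 90.8, 76.4, 72.3 and 78.8 FPKM in WT 1 to WT 4 and 65.5, 51.7, 51.7, 54.2 and 48.8 FPKM in KO 1 to KO 5. The groups did not overlap, and WT 1 and KO 1 were each the highest of their genotype. The mean fell from 79.6 ± 7.97 FPKM (SD, n = 4) to 51.6 ± 2.18 FPKM (SD, n = 4), a log2 change of −0.61 (SE 0.09, limma adjusted p = 0.00457).

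IL-4 receptor α (*Il4ra*, 125552120 to 125579474, plus strand) binds IL-4 and, with a further chain, IL-13. It measured 56.7, 39.4, 37.7 and 33.8 FPKM in WT 1 to WT 4 and 40.2, 29.0, 29.6, 30.1 and 30.3 FPKM in KO 1 to KO 5. KO 2 to KO 5 lay below every WT library, but KO 1 lay above WT 2, WT 3 and WT 4 on the FPKM scale. As a share of recovered reads, KO 1 (5255 of 24518439) lay below the lowest WT library, WT 4 (3420 of 14576144). The log2 change of −0.45 (SE 0.15) did not pass in the main comparison (limma adjusted p = 0.0845) and passed without WT 1 (−0.30, limma adjusted p = 0.00425). By the exact permutation test (two-sided) *Il4ra* gave p = 0.0286, the smallest that 4 against 4 libraries can give, and p = 0.0635 with KO 1 included. The *Il21r* window, printed for its FOXO motif (capitals, read on the opposite strand, 38 bases before the start), lies at chr7:125603179-125603428 on the plus strand and is 55.6% G + C. The *Il4ra* and *Il6ra* windows held none of the 3 motifs, the *Il12rb2* window held the STAT motif, and 1 of the windows of *Il15ra* held the ETS motif.
Il21r promoter: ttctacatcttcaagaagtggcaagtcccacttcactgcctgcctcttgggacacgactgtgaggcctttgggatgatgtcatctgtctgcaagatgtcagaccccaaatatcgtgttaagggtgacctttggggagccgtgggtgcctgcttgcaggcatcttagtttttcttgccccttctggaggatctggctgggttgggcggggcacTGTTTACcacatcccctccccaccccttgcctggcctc

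IL-15 receptor α (*Il15ra*, chromosome 2, 11705290 to 11734317, plus strand), which presents IL-15 to neighboring cells, was low in both genotypes. It measured 2.48, 3.91, 4.76 and 5.00 FPKM in WT 1 to WT 4 and 2.68, 4.80, 4.04, 4.06 and 5.34 FPKM in KO 1 to KO 5. The ranges overlapped, and WT 1 and KO 1 were the lowest libraries of their genotypes. The log2 difference was 0.17, with a 95% confidence interval of −0.25 to 0.58 (limma adjusted p = 0.534).

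**Figure D2:**
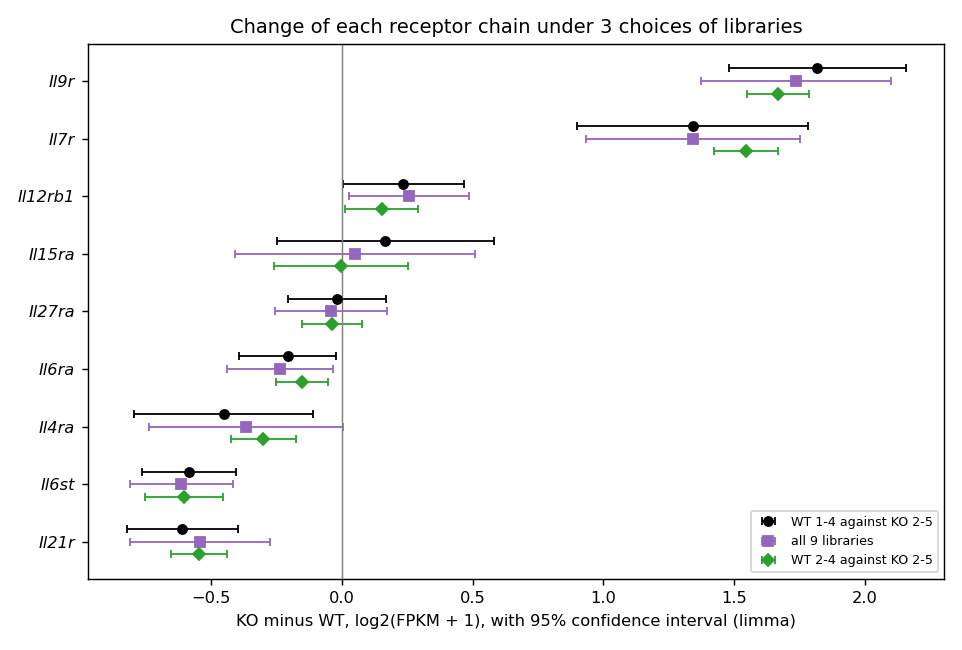
Difference between KO and WT in log2(FPKM + 1) for the 9 chains tested, with 95% confidence intervals from limma. Black circles are WT 1 to WT 4 against KO 2 to KO 5, purple squares are all 9 libraries, and green diamonds leave out WT 1. The intervals of *Il9r*, *Il7r*, *Il12rb1*, *Il6ra*, *Il6st* and *Il21r* did not include zero in any of the 3, before adjustment over all genes. The intervals of all 9 chains were narrower without WT 1.

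The shared chain of the IL-6 family also fell. gp130 (*Il6st*, chromosome 13, 112464070 to 112510086, plus strand) transmits the signals of IL-6, IL-27 and several further cytokines to the nucleus, mainly through STAT3. It measured 30.6, 33.6, 32.7 and 31.0 FPKM in WT 1 to WT 4 and 18.9, 19.8, 20.4, 20.3 and 23.6 FPKM in KO 1 to KO 5. The genotypes did not overlap, and WT 1 was close to the other WT libraries. The mean fell from 32.0 ± 1.38 FPKM (SD, n = 4) to 21.0 ± 1.72 FPKM (SD, n = 4), a log2 change of −0.59 (SE 0.08, limma adjusted p = 0.00264). The change was −0.67 between WT 1 and KO 1 and −0.61 for KO 2 to KO 5 over WT 2 to WT 4. The *Il6st* window, printed as the most G + C-rich of the chains (66.0%, with 26 CpG against 1 in the *Il7r* window), lies at chr13:112463820-112464069 on the plus strand and held none of the 3 motifs. The median over all RefSeq windows was 52.4% G + C.
Il6st promoter: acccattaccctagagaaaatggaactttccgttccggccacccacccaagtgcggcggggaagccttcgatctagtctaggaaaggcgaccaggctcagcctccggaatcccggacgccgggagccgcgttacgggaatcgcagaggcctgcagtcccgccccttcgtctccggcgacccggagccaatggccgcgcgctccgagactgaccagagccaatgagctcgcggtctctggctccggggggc

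The IL-6 receptor α chain (*Il6ra*, chromosome 3, 89864059 to 89913196, minus strand), which binds IL-6 before gp130 joins the complex, differed less. It measured 34.4, 30.7, 29.7 and 27.8 FPKM in WT 1 to WT 4 and 23.6, 25.5, 26.7, 26.3 and 26.9 FPKM in KO 1 to KO 5. On the FPKM scale all KO libraries lay below all WT libraries, by as little as the gap between 27.8 and 26.9 FPKM. The log2 change of −0.21 (SE 0.08) did not pass (limma adjusted p = 0.126), and without WT 1 it was −0.15 and passed (limma adjusted p = 0.028).

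IL-27 receptor α (*Il27ra*, chromosome 8, 84030294 to 84042589, minus strand), the private chain that pairs with gp130 for IL-27, had the highest mean of the 10 in WT Tregs. It measured 89.5, 96.6, 89.9 and 96.9 FPKM in WT 1 to WT 4 and 84.9, 96.0, 95.1, 90.5 and 86.5 FPKM in KO 1 to KO 5. The ranges overlapped, and the log2 difference was −0.02 with a 95% confidence interval of −0.21 to 0.17 (limma adjusted p = 0.889).

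In the IL-12 family, IL-12Rβ1 (*Il12rb1*, chromosome 8, 70808449 to 70821424, plus strand) measured 12.2, 14.3, 16.2 and 16.4 FPKM in WT 1 to WT 4 and 18.9, 17.1, 16.9, 17.1 and 18.8 FPKM in KO 1 to KO 5. On the FPKM scale the KO libraries lay above the WT libraries, with KO 3 close to WT 4. The log2 difference of 0.23 (SE 0.10) did not pass (limma adjusted p = 0.156). IL-12Rβ2 (*Il12rb2*, chromosome 6, 67291318 to 67376188, minus strand), the chain that T helper 1 cells need to respond to IL-12, was near the detection limit. It measured 0.0677 to 0.225 FPKM in WT and 0.0712 to 0.173 FPKM in the 5 KO libraries, from 4 to 14 reads per library. A difference was not detectable at this depth (exact permutation test, two-sided, p = 0.257 for 4 against 4 libraries). Its exons overlap those of *Serbp1* on the opposite strand, as those of *Il27ra* overlap *Palm3*, those of *Il4ra* overlap *Gm44876* and those of *Il6ra* overlap *Gm42809*. The libraries were strand-specific, but whether the counting used strand was not stated, so reads of these 4 chains may include reads of the partner.

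On the FPKM scale with KO 1 included, *Il7r*, *Il9r* and *Il12rb1* were higher and *Il21r*, *Il6ra* and *Il6st* lower without overlap between genotypes. Each of these 6 gave p = 0.0159 by the exact permutation test (two-sided), the smallest that 4 against 5 libraries allow. Groups without overlap always give this value, so it restates the separation. Over 12312 genes, 11.8% did not overlap over the 9 libraries, 6.10% higher and 5.69% lower in KO. Without KO 1, *Il4ra* joined them and 7 of the 9 did not overlap, against 33.1% of 12237 genes (15.9% higher and 17.2% lower). As a share of recovered reads, *Il12rb1* in KO 1 (1687 of 24518439) lay below WT 4 (1133 of 14576144). *Il6ra* in KO 3 (3889 of 14697591) lay above WT 1 (4299 of 16664446). Over all 9 libraries these chains thus overlapped on that scale, whereas *Il4ra*, *Il7r*, *Il9r*, *Il21r* and *Il6st* did not.

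**Figure D3:**
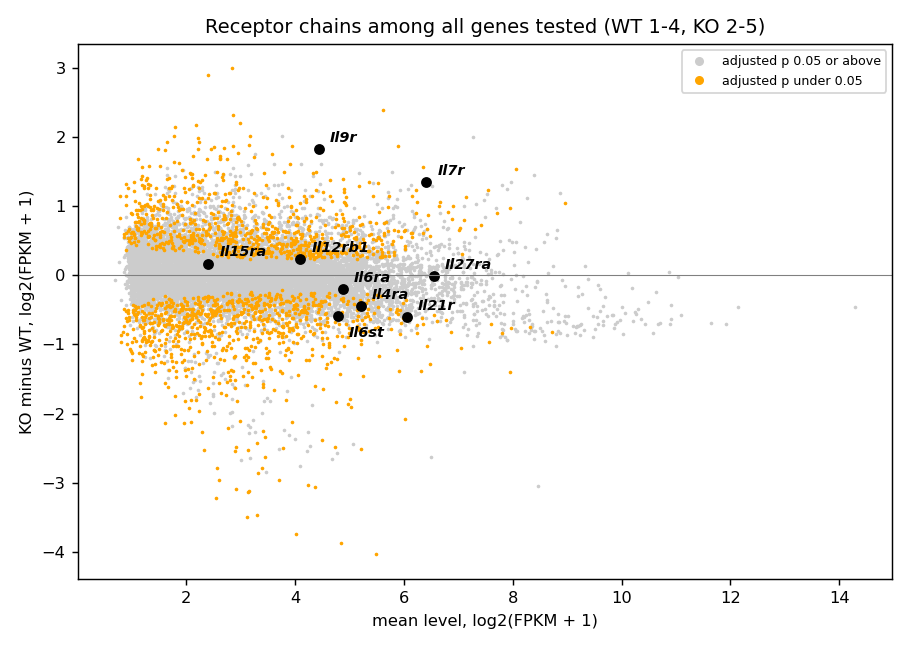
Each gene tested, by its mean level (x axis, log2(FPKM + 1)) and its difference between KO 2 to KO 5 and WT 1 to WT 4 (y axis, log2(FPKM + 1)). Orange genes had an adjusted p under 0.05, gray genes did not, and black points are the 9 receptor chains whatever their p. *Il9r* and *Il7r* lay 1.82 and 1.34 above zero, and *Il21r* and *Il6st* lay 0.61 and 0.59 below it.

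The order of the chains by mean FPKM differed between genotypes. In WT Tregs it ran *Il27ra*, *Il21r*, *Il7r*, *Il4ra*, *Il6st*, *Il6ra*, *Il12rb1*, *Il9r*, *Il15ra* and *Il12rb2*. The ranges of *Il27ra* and *Il21r*, of *Il7r* and *Il4ra*, and of *Il6st* and *Il6ra* overlapped over the WT libraries, and the other neighbors were apart. In KO 2 to KO 5 it ran *Il7r*, *Il27ra*, *Il21r*, *Il9r*, *Il4ra*, *Il6ra*, *Il6st*, *Il12rb1*, *Il15ra* and *Il12rb2*, with no overlap between neighbors. *Il7r* moved ahead of *Il27ra* and *Il21r* to the top, and *Il9r* moved ahead of *Il4ra*, *Il6ra*, *Il6st* and *Il12rb1*. In KO 1, however, *Il9r* (24.3 FPKM) lay below *Il4ra* (40.2 FPKM). The summed FPKM of the 10 chains was 331 to 395 in WT and 393 to 400 in KO. *Il7r* made up 11.4% to 18.2% of that sum in WT and 30.0% to 30.7% in KO, *Il9r* 1.51% to 3.07% and 6.08% to 8.55%, and *Il21r* 21.8% to 23.2% and 12.3% to 16.4%.

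Ratios of private to shared chains were described over all 9 libraries, with no test. The common γ chain (*Il2rg*) measured 149, 106, 102 and 101 FPKM in WT 1 to WT 4 and 164, 98.8, 102, 97.8 and 105 FPKM in KO 1 to KO 5, with a log2 difference of −0.17 in the main comparison (limma adjusted p = 0.409). Relative to it, *Il7r* was 0.377 to 0.483 in WT and 0.740 to 1.21 in KO, and *Il9r* was 0.0399 to 0.103 in WT and 0.148 to 0.328 in KO. In the opposite direction, *Il4ra* was 0.334 to 0.381 of *Il2rg* in WT and 0.245 to 0.308 in KO, and *Il21r* was 0.610 to 0.778 in WT and 0.400 to 0.554 in KO. The order of *Il7r* and *Il21r* relative to the common chain was thus exchanged between genotypes. *Il6ra* over *Il6st* was 0.895 to 1.12 in WT and 1.14 to 1.31 in KO, and *Il27ra* over *Il6st* was 2.75 to 3.12 in WT and 3.67 to 4.85 in KO. These ranges did not overlap, and both shared the lower *Il6st*. The ratios of *Il15ra* to *Il2rb* and of *Il12rb2* to *Il12rb1* overlapped between genotypes.

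**Figure D4:**
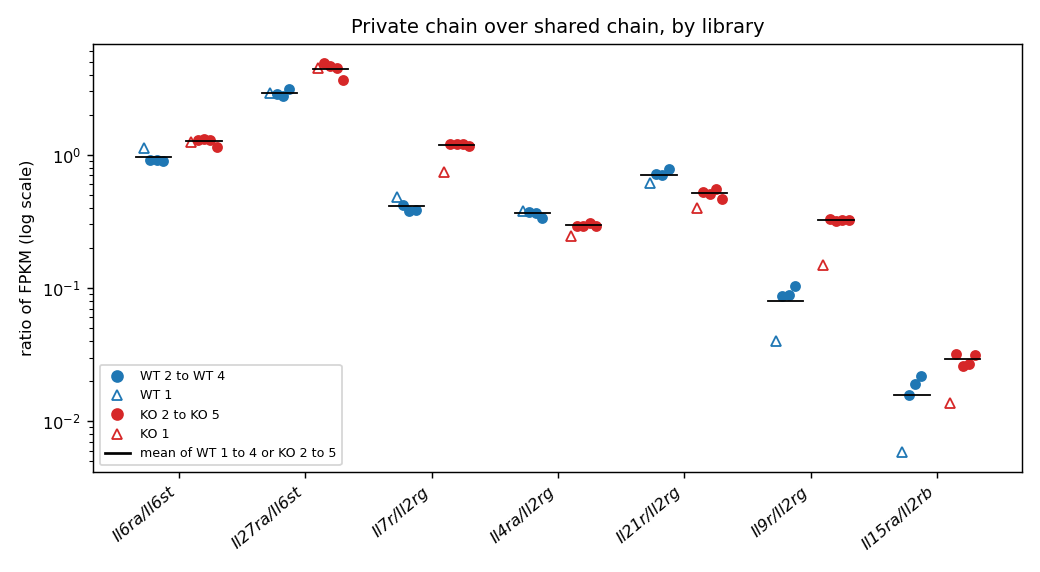
FPKM of a private chain divided by FPKM of its shared chain in each library, on a log axis, with WT in blue, KO in red and open triangles for WT 1 and KO 1. Black lines are means (WT 1 to WT 4, or KO 2 to KO 5). The *Il7r* to *Il2rg* ratio was at most 0.483 in WT and at least 0.740 in KO, and the *Il15ra* to *Il2rb* ratio overlapped.

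Among 25 other type I receptor chains, 22 were in the table and 7 were tested. None rose and 2 fell, beside 6.58% higher and 6.68% lower over all genes. Their median log2 change was −0.17 beside 0.0052 over all genes tested. Both that fell were IL-2 receptor chains. *Il2ra*, which confers high affinity for IL-2, fell by 1.38 on the log2 scale (limma adjusted p = 1.06e-04). *Il2rb*, shared with IL-15, fell by 0.83 (limma adjusted p = 0.0321, and 0.0581 with all 9 libraries). Without WT 1, 3 of the 7 fell, beside 17.1% of all genes. With all 9 libraries 1 fell, beside 3.55%, and none rose in either.

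Of the ligands of these receptors, 16 of 18 were in the table and 5 were tested, of which 1 fell and none rose (median −0.43). Without WT 1, 3 fell, and with all 9 libraries none did. The shares of all genes that fell were 6.68%, 17.1% and 3.55% in these 3 comparisons. The gene that fell in the main comparison was *Ebi3*, a subunit of IL-27 and IL-35. It measured 15.3 to 27.8 FPKM in WT and 7.57 to 18.1 FPKM in KO. The log2 change was −1.11 (limma adjusted p = 0.00587, and 0.0828 with all 9 libraries). *Il7*, which is made by stromal cells, was at 0.0216 to 0.122 FPKM in WT and 0.0385 to 0.178 FPKM in KO and was not tested.

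Downstream of the receptors, 10 JAK and STAT genes were listed and tested, none rose and 1 fell (median 0.06), beside 6.58% and 6.68% of all genes. Without WT 1, 2 rose, *Stat5b* (limma adjusted p = 0.00347) and *Stat6* (0.0122), and 1 fell. These counts are near the shares over all genes without WT 1 (19.5% higher and 17.1% lower). *Stat5a*, a mediator of IL-2, IL-7 and IL-15 signals, had a log2 change of −0.45 (limma adjusted p = 0.0108). Of 13 feedback inhibitors, 2 rose and 3 fell (median −0.28). Without WT 1, 3 rose and 7 fell, beside 19.5% and 17.1% of all genes, and with all 9 libraries 2 rose and 1 fell. *Cish*, a target of STAT5, measured 34.1 to 38.1 FPKM in WT and 14.2 to 20.1 FPKM in KO, a log2 change of −0.88 (limma adjusted p = 2.31e-04). *Socs3*, which binds gp130 and limits IL-6 signaling, measured 56.1 to 75.6 FPKM in WT and 77.9 to 136 FPKM in KO, a log2 change of 1.00 (limma adjusted p = 0.00128). The genotypes did not overlap for either gene, and they moved in opposite directions. *Pias3*, an inhibitor of STAT3, rose by 0.71 (limma adjusted p = 0.0109), and *Socs1*, an inhibitor of interferon signaling, fell by 0.84 (limma adjusted p = 0.0282, and 0.144 with all 9 libraries).

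**Figure D5:**
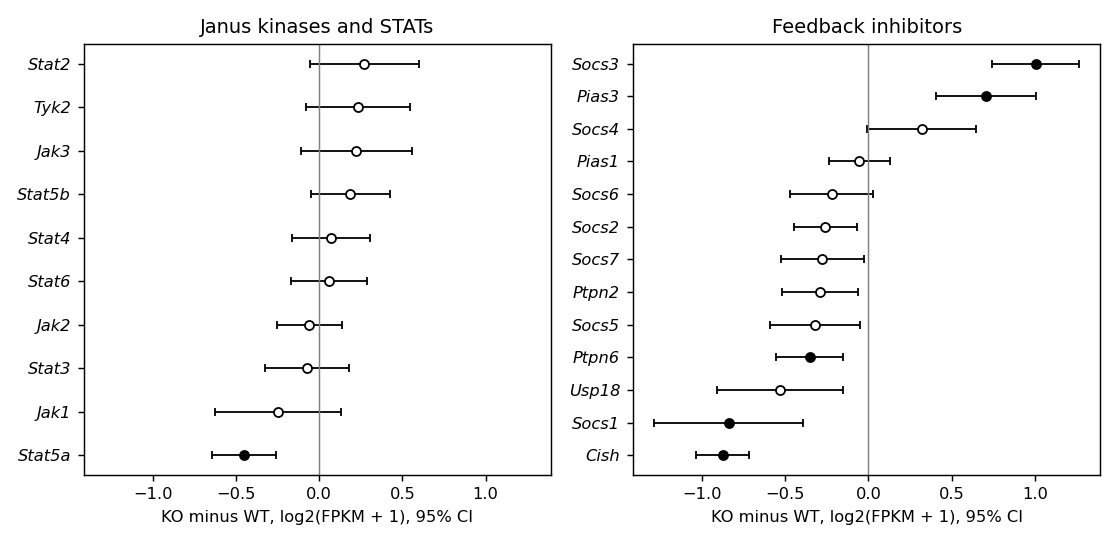
Difference between KO 2 to KO 5 and WT 1 to WT 4 in log2(FPKM + 1) with 95% confidence intervals from limma, for the JAK and STAT genes (left) and the feedback inhibitors (right). Filled circles had an adjusted p under 0.05. *Cish* at −0.88 and *Socs3* at 1.00 lay on opposite sides of zero.

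Of 16 genes listed as regulators of *Il7r* or as genes that follow IL-7 and FOXO1 signals, all were tested, 3 rose and 3 fell (median −0.26). Without WT 1, 6 rose and 5 fell, beside 19.5% and 17.1% of all genes. *Runx3*, a Runt factor of T cells, rose by 0.89 on the log2 scale (limma adjusted p = 0.00117), and *S1pr1*, the receptor for exit from lymphoid organs, rose by 0.80 (limma adjusted p = 0.0201). *Bcl2*, a survival factor induced by IL-7 in T cells, fell by 0.80 (limma adjusted p = 0.00203), and *Gfi1*, a repressor of *Il7r*, fell by 0.54 (limma adjusted p = 0.0311). *Foxo1*, an activator of *Il7r*, measured 28.1 to 43.6 FPKM in WT and 27.0 to 37.8 FPKM in KO and did not pass. The members that rose and those that fell thus came from both the regulators and the genes downstream.

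The genes most like *Il9r*, the chain with the smallest p among those that rose, by Pearson r of log2(FPKM + 1) over the 8 libraries were *Tent5a* (r = 0.999), *Rnf44* (0.998) and *Myo1f* (0.998). Those most like *Il6st*, the chain with the smallest p among those that fell, were *Camk2d* (0.997), *Rgs1* (0.996) and *Pus7* (0.995). The 8 points share libraries and fall into 2 genotypes, so high values follow for any gene that separates them.

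Markers of B cells and plasma cells were called lower in KO, and those of myeloid, CD8 T and NK cells were called in the comparison without WT 1 but not in the main one. Over all genes, 6.68% were lower in the main comparison and 17.1% without WT 1. Treg-defining markers were present in all libraries, with a summed level of 691 to 751 FPKM in WT and 617 to 737 FPKM in KO. All 15 B cell markers were in the table, 8 were tested and 6 of them fell, none rose, with a median log2 change of −1.05 and a summed level of 89.7 to 134 FPKM in WT and 40.2 to 88.9 FPKM in KO. The 4 with the smallest p were *Cd74*, *Fcmr*, *Pou2af1* and *H2-Aa*. With all 9 libraries 4 of the 8 fell, and *H2-Aa* was not among them (limma adjusted p = 0.0654). Of the 15, 1 was at 0 in a WT library and 4 were at 0 in a KO library. Of 8 plasma cell markers 6 were tested and 3 fell (*Ighg1*, *Mzb1* and *Ighm*), and their sum was 455 to 1002 FPKM in WT and 226 to 445 FPKM in KO. With all 9 libraries 2 of the 6 fell, without *Ighm* (limma adjusted p = 0.175). Without WT 1, 5 plasma cell markers were tested and 3 fell. *Xbp1* rose there by 0.26 on the log2 scale (limma adjusted p = 0.0489), and by 0.14 in the main comparison, where it did not pass. None of the 4 myeloid and dendritic markers tested passed in the main comparison, but without WT 1, where *Il4ra* and *Il6ra* were called lower, all 4 fell: *Csf1r* (limma adjusted p = 0.00691), *Cd68* (0.0129), *C1qa* (0.0157) and *Lyz2* (0.0213). The sum of all 12 was 13.4 to 53.9 FPKM in WT and 3.46 to 23.5 FPKM in KO. The sum of 9 CD8 T and NK cell markers was 13.2 to 20.1 FPKM and 7.71 to 17.5 FPKM, and none of the 3 tested passed, but 2 fell without WT 1, *Cd8b1* (limma adjusted p = 0.0173) and *Prf1* (0.0261). The 7 neutrophil markers in the table, none of which was tested, summed to 0.676 to 6.68 FPKM and 0.513 to 3.28 FPKM. B cells are known to express *Il4ra* and *Il21r*, and myeloid cells *Il6ra*. The B cell sum was 89.7 FPKM in WT 1 and 88.9 FPKM in KO 1, and the myeloid sum was 13.4 and 23.5 FPKM. Most of the B cell sum was *Cd74* (53.7 and 50.5 FPKM) and *Cd79b* (21.5 and 25.5 FPKM). The other B cell markers went both ways, such as *Cd79a* (2.14 and 1.10 FPKM) and *H2-Aa* (2.40 and 2.82 FPKM). Similar sums therefore do not show a similar content of B cells. The part of other cells in the differences of the receptor chains was not tested.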

How the data were processed

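RNA of splenic GFP+ Tregs was sequenced with paired-end reads from 4 WT and 5 KO samples, prepared together and run on 1 lane. Per the submitters' processing notes, CASAVA and fastp were used with the mm10 genome. Their versions, the aligner, the counter and the annotation were not stated. The authors deposited FPKM for 25500 entries, of which 10 symbols are duplicated and 23 are turned into dates. Whole reads were recovered as FPKM times GENCODE M21 exon length times 1 constant per library, and 24369 entries (95.6%) came out whole within 0.01 read, including all 10 chains. Recovered reads per library are the sum of these reads. The limma-voom fit took its library sizes from the constants, so it kept the scale of the deposited FPKM. No alternative scaled by recovered reads. No pair of libraries held identical values.

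Genes that exceeded 1 FPKM in 4 or more of the 8 libraries entered a limma-trend fit of log2(FPKM + 1) (limma 3.58.1, R 4.3.3), and p-values were adjusted by Benjamini-Hochberg over all genes tested. A fold change on this scale understates the change of low genes. Single values were tested by two-sided exact permutation of the mean log2(FPKM + 1) (scipy 1.17.1). Calls were made at an adjusted p under 0.05. The alternatives were all 9 libraries, the same with a term for WT 1 and KO 1, a replicate block (also over all 9), leaving out each library, scaling by median ratio or by upper quartile, no filter or a stricter one, a pseudocount of 0.1 and limma-voom on recovered reads (at least 10 in 4 libraries). Methods were tested on simulated data.

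The chains and gene lists were chosen with earlier results of these data known. The genes named are the 10 chains, *Hsp90b1*, *Il2rg* and *Il2rb*, up to 4 genes with the smallest p that passed in each list, and the 3 most like the leading chain in each direction. *Foxo1*, *Foxp3*, *Il7*, *Stat5b*, *Stat6*, *Xbp1*, *Cd79a*, *Cd79b*, *Csf1r*, *Cd68*, *C1qa*, *Lyz2*, *Cd8b1* and *Prf1* were named after their values were seen. Promoters are from RefSeq (GRCm38.p6). Some genes of the lists are not reported here.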

Additional observations from a re-analysis of the deposited data

Results flagged for a closer look

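In all, 4 values stood far from the other libraries of their genotype by Dixon's test, in 30 groups of 4 or 5 libraries, of which chance flags about 1 in 20. *Il4ra* was 40.2 FPKM in KO 1, above 29.0 to 30.3 FPKM in the other 4 KO libraries. With KO 1 included its genotypes overlapped on the FPKM scale, but not as shares of recovered reads. *Il9r* was 24.3 FPKM in KO 1, below 31.9 to 33.8 FPKM in the others and above all WT libraries. KO 1 also stood apart over all genes. *Il6st* was 23.6 FPKM in KO 5, above 19.8 to 20.4 FPKM in KO 2 to KO 4 and below every WT library. *Il12rb1* was 18.8 FPKM in KO 5, above 16.9 to 17.1 FPKM in KO 2 to KO 4, and KO 1 measured 18.9 FPKM.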

How the results depend on the processing

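*Il7r*, *Il9r*, *Il21r* and *Il6st* passed the adjusted p of 0.05 with the same sign under all 18 alternatives, with log2 changes of 1.25 to 1.54, 1.65 to 1.93, −0.65 to −0.51 and −0.66 to −0.55. *Il4ra* passed under 5 of them (adjusted p from 0.0014 to 0.288), *Il6ra* under 2 (0.0227 to 0.274), *Il12rb1* under 1 (0.0396 to 0.298), and *Il15ra* and *Il27ra* under none. The total of genes called depended on the libraries: 1622 in the main comparison, 832 with all 9, 4471 when a term for WT 1 and KO 1 was added, and 731 to 4421 with 1 library left out, the highest without WT 1. It was 844, 828 and 1235 without WT 2, WT 3 and WT 4, and 731, 734, 731 and 954 without KO 2 to KO 5. The chains that fell numbered 4 with the term, and 2 to 4 with 1 library left out. The chains that rose numbered 2 throughout except 3 with the term. In the 8 libraries compared, deviations from the genotype means correlated at r = 0.05, −0.11 and 0.0047 between libraries numbered 2, 3 and 4, so the numbers were not taken as pairs there. Over all 9 libraries r was 0.87, 0.43, 0.31 and 0.47 for numbers 1 to 4, with WT 1 and KO 1 apart from the rest, and WT 3 and WT 4 correlated best with another number (0.42 and 0.58). With the replicate number as a block, 3668 genes were called over the 8 libraries and 3448 over all 9 (an alternative chosen after seeing the data), and in both 2 chains rose and 3 fell, *Il4ra* being added. The uncalled difference of *Il15ra* changed sign to −0.067 with the block and −0.029 with the block over all 9, and ranged from −0.0019 without WT 1 to 0.26 without WT 4. That of *Il27ra* changed sign to 0.023 with upper quartile scaling, and ranged from −0.039 without KO 2 to 0.011 without KO 5, with 0.00066 without WT 4. The cause was not tested. The 4 to 14 reads of *Il12rb2* allow no statement on a difference.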

Other observations

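Gene groups outside the receptors moved in both directions. Over all genes, 6.58% were higher and 6.68% lower in the main comparison, and 19.5% and 17.1% without WT 1. Of 12 helper T cell factors and cytokines tested, 3 rose and 4 fell (median −0.27), and 3 rose and 6 fell without WT 1. *Rora*, a nuclear receptor of T helper 17 and tissue Tregs, rose by 1.61 on the log2 scale (limma adjusted p = 1.70e-04), and *Prdm1*, which encodes Blimp-1, rose by 0.39 (limma adjusted p = 0.0162). *Irf4*, a factor of effector Tregs, fell by 0.82 (limma adjusted p = 7.68e-04), and *Bcl6*, the factor of follicular T cells, fell by 0.55 (limma adjusted p = 0.00512).

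Of 16 effector Treg genes tested, 2 rose and 6 fell (median −0.33), and 3 rose and 7 fell without WT 1. *Il1rl1*, the IL-33 receptor, rose by 1.10 (limma adjusted p = 1.06e-04), while *Ccr8*, a chemokine receptor, and *Tnfrsf9*, a costimulatory receptor, had log2 changes of −1.81 and −1.90 (limma adjusted p = 2.67e-04 and 4.51e-04). Of 10 naive and central Treg genes tested, 2 rose and 3 fell (median −0.33), and 3 rose and 4 fell without WT 1. *Klf2*, a factor of T cell trafficking that the IL-7 list also holds, rose by 0.98 (limma adjusted p = 0.0318), and *Bach2* and *Igfbp4* fell by 0.63 and 2.48 (limma adjusted p = 0.00276 and 0.00311).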
